A study of Homo sapiens with 4 samples.

Results

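NF-kB is a family of dimeric transcription factors built from 5 subunits, and the genes described here are those subunits and feedback genes that NF-kB itself induces, in 2 myeloid cell lines treated with decitabine (DAC). Of 10 genes listed by symbol, NFKB1, NFKB2, REL, RELA, RELB, NFKBIA, NFKBIE, NFKBIZ and TNFAIP3 have probe sets with that symbol alone. These are 9 of the 18132 genes with a symbol, and they hold 15 of the 49395 probe sets on the array. The tenth, BIRC3, which encodes the ubiquitin ligase cIAP2, was not analysed here for want of a probe set matched by symbol. Total RNA came from MDS-L cells given DAC, MDS-L cells given DMSO (the solvent), SKM-1 cells given DAC and SKM-1 cells given DMSO. DAC, a nucleoside analog that blocks DNA methyltransferases, was given at 1 μM as 5 pulses of 24 h. MDS-L is a human line from myelodysplastic syndrome and was grown with IL-3 at 100 U/ml. SKM-1 comes from a leukemia that followed the same disease, also human. A single array stands for each of the 4 conditions, so no value here has a replicate error, no test within a cell line is possible, and the differences are descriptions of these arrays.

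In resting cells, NF-kB dimers are held in the cytoplasm by IkB proteins. Signals from cytokine and Toll-like receptors activate the IKK kinase complex, which marks IkB for destruction and frees the dimers to enter the nucleus. There they bind kB sites and induce cytokines, survival genes and their own brakes, among them NFKBIA (IkB alpha), which captures the dimers again, and TNFAIP3 (A20), which edits ubiquitin on upstream signaling proteins. In myeloid cells the pathway is known for driving inflammatory gene expression. An RNA level says nothing of where a subunit lies in the cell or whether it is bound to IkB.

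Several of these genes are known targets of NF-kB themselves, so the bases before their starts are given as context for the expression values. RefSeq promoters on GRCh38.p14 matched 8 of the 10 genes by symbol, with 13 start sites. The 250 bases before each start were searched on both strands for the 10-letter kB consensus. It occurred before at least 1 start of 7 of the 8 genes (NFKB1, NFKB2, REL, NFKBIA, NFKBIZ, TNFAIP3 and BIRC3) and before neither start of RELA. Among all 27305 gene symbols with a promoter, 11.8% have it before at least 1 start. By start site the consensus was found before 9 of 13, where 9.96% of 35116 promoters of all genes hold it. The genes were listed in part as known NF-kB targets, so these counts describe the list and are not a test. Sequences are shown for the 5 measured genes that have the match before the first of their listed starts, written 5′ to 3′ on the strand of the gene with the match in capitals.
NFKB1: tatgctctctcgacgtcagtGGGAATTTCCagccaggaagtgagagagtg
REL: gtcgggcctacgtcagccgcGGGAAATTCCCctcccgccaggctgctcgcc
NFKBIA: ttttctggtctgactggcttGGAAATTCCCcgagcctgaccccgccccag
NFKBIZ: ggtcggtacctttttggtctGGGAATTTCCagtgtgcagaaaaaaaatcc
TNFAIP3: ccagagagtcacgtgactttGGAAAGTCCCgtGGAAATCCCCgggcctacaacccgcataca

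The NFKB1 stretch lies at chr4:102501290-102501339 on the plus strand, and its match covers the bases 49 to 40 before the start. The REL stretch is at chr2:60881507-60881557 on the plus strand, where 2 overlapping matches on opposite strands fill the bases 47 to 37 before the start. The NFKBIA stretch is at chr14:35404801-35404850 on the minus strand, with its match on the opposite strand at bases 81 to 72. The NFKBIZ stretch, at chr3:101827747-101827796 on the plus strand, has its match farther out, at bases 223 to 214. The TNFAIP3 stretch, at chr6:137867172-137867233 on the plus strand, holds 2 matches on the opposite strand, at bases 67 to 58 and 55 to 46. Read on its own strand, the same 10 letters, GGGAATTTCC, occur before starts of NFKB1, REL, NFKBIA and NFKBIZ, and before 0.142% of all promoters. They were singled out after the matches had been seen. CpG dinucleotides, the sites that DNA methyltransferases modify, numbered 31 before the first NFKB1 start, 36 before REL, 29 before TNFAIP3, 15 before NFKBIA and 12 before the first NFKBIZ start, where the median promoter has 11. Methylation was not measured on these arrays, and a match in sequence is not a measured binding site.

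**Figure D1:**
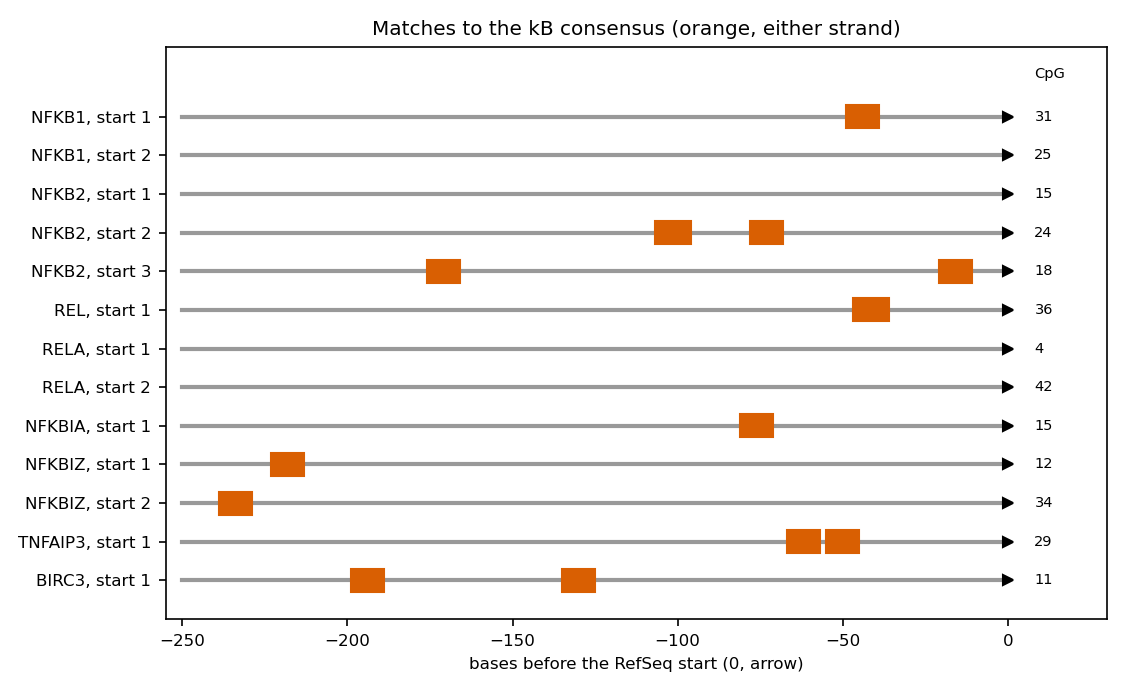
Each line is the 250 bases before one RefSeq start of an NF-kB gene, with distance from the start in bases on the horizontal axis, the start marked by an arrow and matches to the kB consensus in orange, and the number at the right counts CpG dinucleotides. Of the 13 starts 9 have a match, and in NFKB1, REL and TNFAIP3 all matches lie within 67 bases of the start.

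All 15 probe sets lay above the background level on all 4 arrays. That level was the 90th percentile of the olfactory receptor probe sets of each array, at 5.09 (log2) in MDS-L with DAC, 4.84 in MDS-L with DMSO, 5.07 in SKM-1 with DAC and 4.88 in SKM-1 with DMSO. A gene with several probe sets is represented by the one with the highest mean. Different probe sets of a gene gave DAC minus DMSO differences with a pooled SD of 0.28 over 7609 genes in MDS-L and 0.29 over 7642 genes in SKM-1. That is the only spread at hand, and it leaves out any difference between cultures. Of 5 myeloid progenitor markers with a probe set, 4 lay above background on each array, CD38 being under it in MDS-L and KIT in SKM-1. DAC minus DMSO had both signs among them, with -0.84 (log2) for CD34 in MDS-L cells and 0.88 for ANPEP in SKM-1 cells. Of 5 T cell markers, 4 lay above background in MDS-L with DAC against 2 in MDS-L with DMSO, CD3D and CD2 making the difference. In SKM-1 it was 2 with either treatment. Summarized by medians, the T cell markers stood at 5.82 in MDS-L with DAC against 4.69 with DMSO, with a range from 4.35 to 8.91 against 3.80 to 5.24. Of 5 monocyte markers, FCGR3A was under background on all arrays and CD14 in SKM-1. The measured ones were all higher with DAC, 4 of 4 in MDS-L with a median difference of 0.82 and 3 of 3 in SKM-1 with a median of 0.81, both above the highest difference of an NF-kB gene in the same line. Erythroid markers were likewise above 0, 3 of 3 in each line, at medians of 0.47 (MDS-L) and 0.78 (SKM-1). Some of these values lay near background. EPOR in MDS-L was at 5.10 with DAC and under background with DMSO, and ALAS2 ran from 4.99 to 5.76 over the 4 arrays. Megakaryocyte markers had medians of 0.52 (MDS-L, 3 of 4 above 0) and 0.22 (SKM-1, 2 of 3). Of the B cell markers MS4A1 was under background on all arrays. CD79A gave 0.50 in MDS-L cells and 0.08 in SKM-1 cells, and CD79B gave -0.26 and 0.96. CD3D had 8.91 in MDS-L with DAC against 3.98, under background, with DMSO. All 8 housekeeping genes were below 0 for DAC minus DMSO in MDS-L, with a median of -0.20, and 6 of 8 in SKM-1, with a median of -0.17. The part of these genes in the values below was not tested. In RNA from whole cultures, fewer cells of a kind and less RNA per cell cannot be told apart.

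In MDS-L cells all 9 genes were higher with DAC than with DMSO, by 0.06 to 0.59 on the log2 scale, with a median difference of 0.47. A 2-fold difference was reached by 0 of 9 in either direction, where 3.62% of the 12688 genes measured in MDS-L were that far above 0 and 3.18% that far below. A value above 0 is common, at 53.7% of measured genes, and the median of measured genes was 0.04. Among the 6890 measured genes with a mean level in the range of these 9, from 6.91 to 10.43, 44.8% were above 0 and the median was -0.06. A looser threshold of 1.5-fold was reached by 2 of 9, REL and RELB, against 9.06% of all those measured.

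In SKM-1 cells the same genes had no common direction, with 5 of 9 higher with DAC, 4 lower and a median difference of 0.08. Among the 12714 measured genes 54.8% were above 0, with a median of 0.05. Of the 6897 with a mean level in the range of these 9, 49.0% were above 0, and their median was -0.01. Again 0 of 9 reached 2-fold in either direction, where 2.71% of measured genes did so above 0 and 1.43% below. At 1.5-fold, RELB and NFKBIE were higher and TNFAIP3 was lower, so 2 of 9 and 1 of 9 against 9.65% and 9.15% of measured genes. All 15 probe sets of the family were above 0 in MDS-L, against 8 of 15 in SKM-1.

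**Figure D2:**
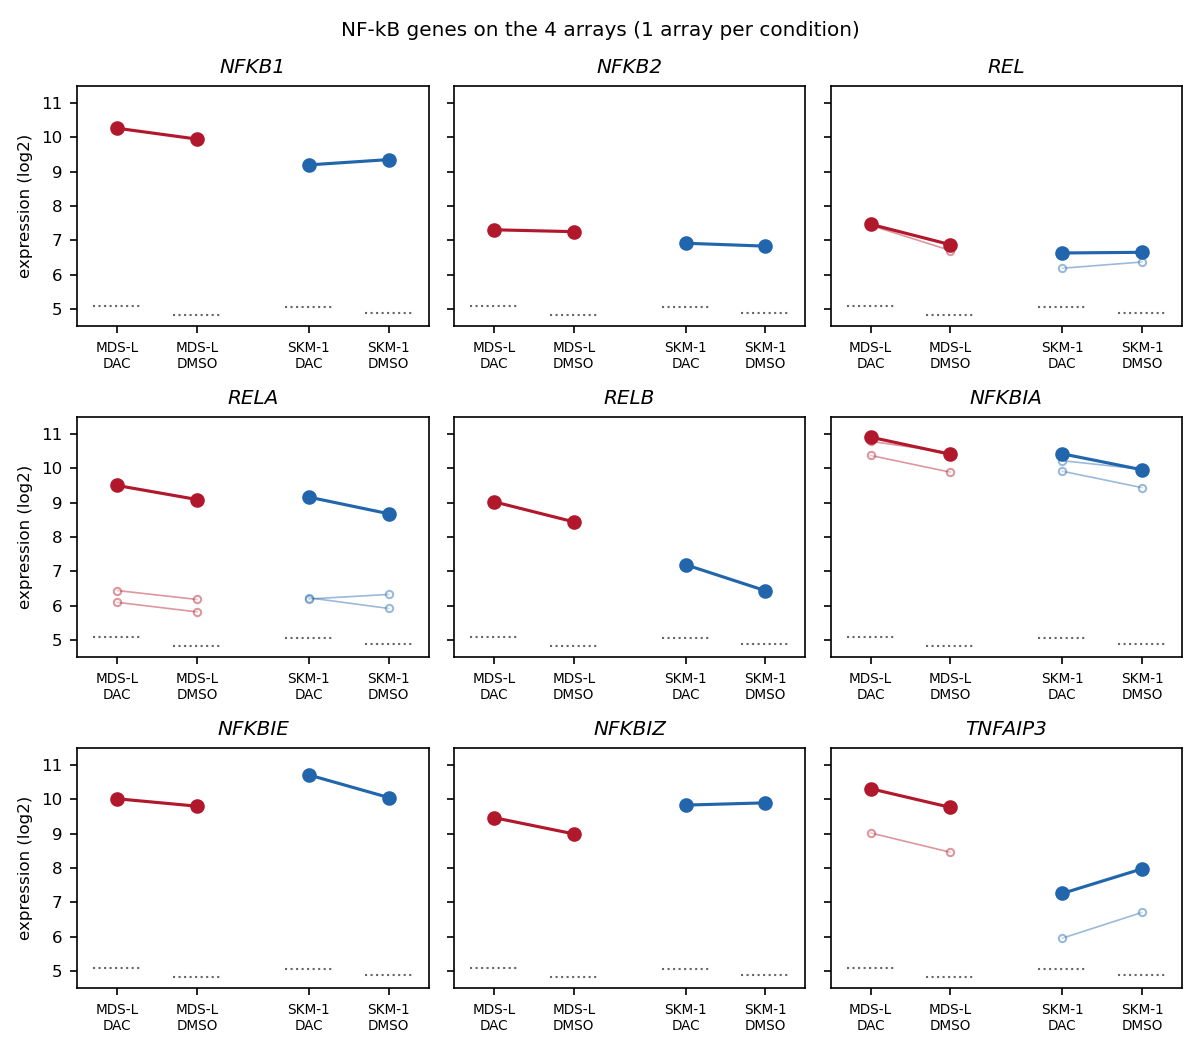
Expression (log2) of each NF-kB gene on the 4 arrays, DAC left of DMSO within each cell line, 1 point per array and probe set, with filled points for the probe set that represents the gene, open points for its other probe sets and dotted lines for the background of each array. In every panel the MDS-L points with DAC are above those with DMSO, whereas in SKM-1 the representing points of NFKB1, REL, NFKBIZ and TNFAIP3 are lower with DAC.

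RELB, the partner of NFKB2 in the noncanonical arm of the pathway, had the largest difference of the 5 subunits in SKM-1, and in MDS-L it came next to REL. Its level was 9.03 with DAC against 8.45 with DMSO in MDS-L (log2), and 7.20 with DAC against 6.44 with DMSO in SKM-1. Both DAC arrays were thus above the DMSO array of their own line, by 0.59 and 0.76, though the SKM-1 array with DAC was still under the MDS-L array with DMSO. The difference in SKM-1 was 1.69-fold. In MDS-L 9.06% of measured genes were at least as far above 0, and in SKM-1 5.36%.

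RELA, or p65, carries a strong activation domain and is the main partner of p50 in the canonical arm. It stood at 9.50 with DAC against 9.10 with DMSO in MDS-L, and at 9.17 with DAC against 8.68 with DMSO in SKM-1, differences of 0.41 and 0.49. Its 2 other probe sets gave 0.28 and 0.26 in MDS-L, and 0.31 and -0.13 in SKM-1. Their levels were lower, from 5.82 to 6.45 over the 4 arrays, and the -0.13 was smaller than the SD between probe sets of a gene. The direction in SKM-1 therefore differed between probe sets of this gene, and with the median over its probe sets on each array the difference in SKM-1 was -0.10.

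REL, or c-Rel, a subunit prominent in blood cells, had the largest difference of the 9 genes in MDS-L and a value near 0 in SKM-1. Its level was 7.47 with DAC against 6.88 with DMSO in MDS-L, and 6.64 with DAC against 6.66 with DMSO in SKM-1. The differences were 0.59 in MDS-L, with 8.78% of measured genes at least as far above 0, and -0.02 in SKM-1. A second probe set gave 0.73 in MDS-L and -0.18 in SKM-1.

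NFKB1, whose product p105 is cut to the p50 subunit, had differences of unlike sign in the lines. It had 10.27 with DAC against 9.95 with DMSO in MDS-L, and 9.20 with DAC against 9.36 with DMSO in SKM-1. These are differences of 0.32 and -0.15, and that in SKM-1 was smaller than the SD between probe sets of a gene. NFKB2, the source of p52, had the smallest difference of the 9 in MDS-L, while REL and NFKBIZ were nearer 0 in SKM-1. It had 7.31 with DAC against 7.26 with DMSO in MDS-L, and 6.92 with DAC against 6.84 with DMSO in SKM-1. Its differences of 0.06 and 0.08 were matched or exceeded by 48.5% and 47.0% of measured genes.

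NFKBIA, which encodes IkB alpha and is the classic fast feedback target, was higher with DAC in both lines by nearly the same amount. It had 10.91 with DAC against 10.41 with DMSO in MDS-L, and 10.43 with DAC against 9.96 with DMSO in SKM-1. The differences were 0.50 and 0.47, or 1.41-fold and 1.38-fold. All 3 of its probe sets were above 0 in both lines, the lowest being 0.33 in MDS-L cells and 0.25 in SKM-1 cells.

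NFKBIE encodes IkB epsilon, an inhibitor that NF-kB also induces. It had 10.02 with DAC against 9.80 with DMSO in MDS-L, and 10.72 with DAC against 10.06 with DMSO in SKM-1. Its difference of 0.66 in SKM-1 was larger than that of 0.22 in MDS-L, and 7.42% of measured genes in SKM-1 were at least as far above 0. NFKBIZ, a nuclear IkB protein that works with p50 to induce secondary targets such as IL6, had 9.47 with DAC against 9.00 with DMSO in MDS-L, and 9.84 with DAC against 9.90 with DMSO in SKM-1. Those are differences of 0.47 and -0.07, so that only the MDS-L arrays stood apart by more than the SD between probe sets. REL and NFKBIZ in SKM-1 were the pair of values whose sign turned under quantile normalization, to 0.04 and 0.0015.

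TNFAIP3 had the widest gap between the lines of the 9 genes. The ubiquitin-editing enzyme A20 that it encodes shuts off signaling upstream of IKK. It had 10.32 with DAC against 9.77 with DMSO in MDS-L, and 7.26 with DAC against 7.98 with DMSO in SKM-1. DAC thus went with a 1.46-fold higher level in MDS-L and a 1.64-fold lower level in SKM-1, where 5.43% of measured genes lay at least as far below 0. A second probe set gave 0.56 in MDS-L and -0.75 in SKM-1, close to the 0.55 and -0.72 of the first.

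**Figure D3:**
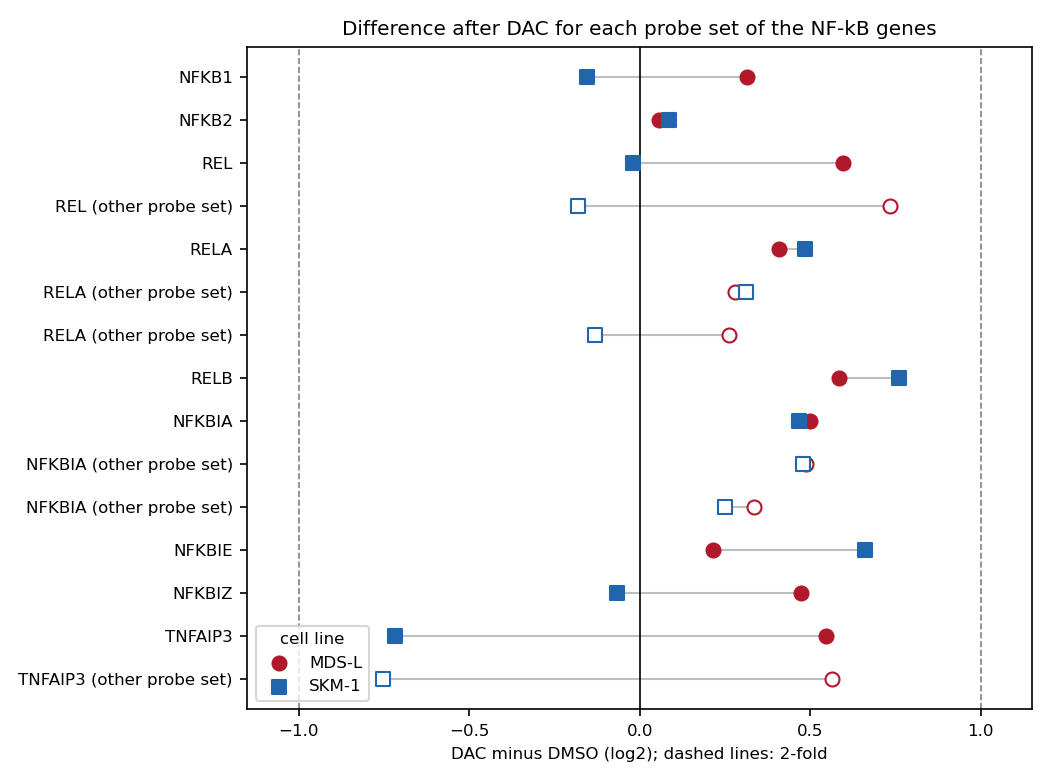
DAC minus DMSO (log2) for each of the 15 probe sets, with circles for MDS-L, squares for SKM-1, filled symbols for the probe set that represents the gene and dashed lines at 2-fold. All circles lie right of 0 and none of the symbols passes the dashed lines, and the widest gap between the lines is that of TNFAIP3, alike in both of its probe sets.

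The cell lines went opposite ways for 4 of 9 genes, NFKB1, REL, NFKBIZ and TNFAIP3, where 35.5% of the 11984 genes measured in both lines did. That count depends on the processing, since REL and NFKBIZ in SKM-1 were near 0 and turned above it under quantile normalization. TNFAIP3 had the largest gap, its difference in MDS-L exceeding that in SKM-1 by 1.26, and 4.70% of genes measured in both lines had a gap at least as large. For NFKBIA, RELA and NFKB2 the differences of the 2 lines lay within 0.08 of each other. With the median over probe sets, however, RELA gave 0.26 in MDS-L and -0.10 in SKM-1. With 1 array for each condition, none of these gaps could be tested.

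An effect of DAC shared by both lines was tested in limma over all 4 arrays, with lines as blocks, which left 1 residual degree of freedom. The SE and p of this fit rest on disagreement between the 2 lines, moderated over all genes, and not on replicate cultures. The threshold of 0.05 on the limma adjusted p was met by 0 of 9 genes and by 0 of all 11984 (0%). RELB had the lowest adjusted p of the 9 by limma, with a common log2 difference of 0.67 (SE 0.23), an unadjusted p of 0.0302 and an adjusted p of 0.413, and it was higher in 2 of 2 lines. It was the only one of the 9 with an unadjusted p under 0.05, where 11.9% of all genes had one. NFKBIA followed with 0.48 (SE 0.22, limma adjusted p = 0.428) and RELA with 0.45 (SE 0.24, limma adjusted p = 0.449). The RELA value depended on the probe set, and with the median over probe sets its common difference was 0.08. For TNFAIP3 the fit gave -0.09 (SE 0.36, limma adjusted p = 0.924), the near 0 average of 2 opposite values.

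**Figure D4:**
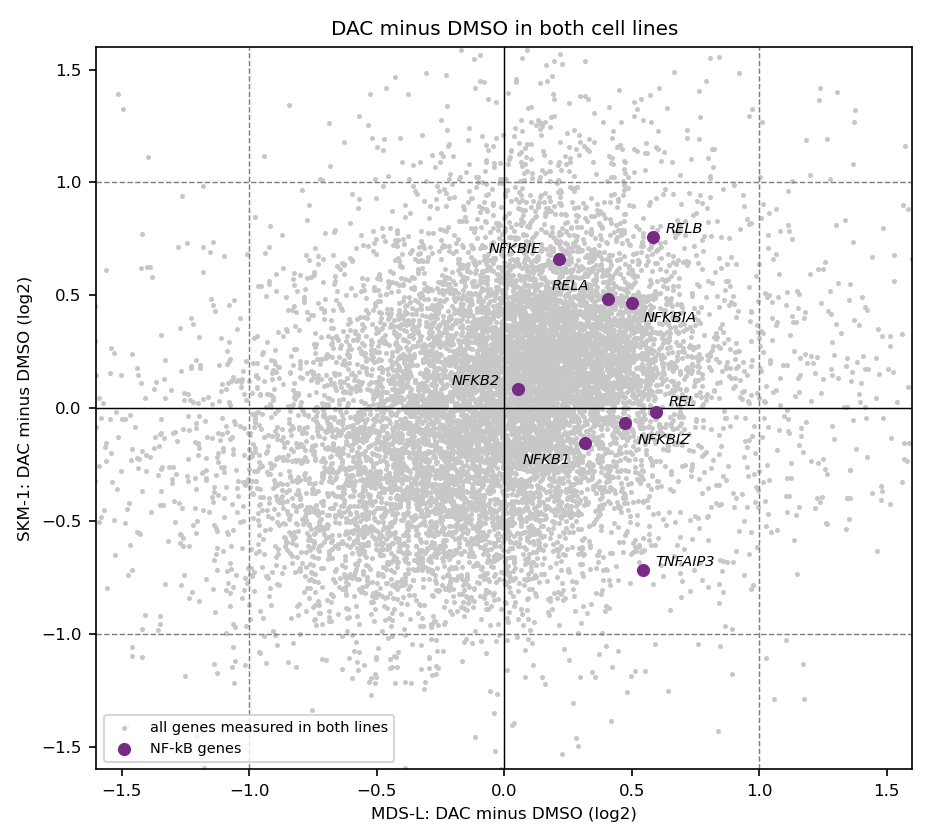
DAC minus DMSO (log2) in MDS-L on the horizontal and in SKM-1 on the vertical axis, with 11984 genes measured in both lines in grey (246 lie outside the axes, which end at 1.6), the 9 NF-kB genes in purple and dashed lines at 2-fold. The 9 genes all lie right of 0, with 5 above and 4 below the horizontal line and TNFAIP3 lowest.

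The levels of the 2 lines differed most for RELB and TNFAIP3, more than any of these genes differed with DAC. RELB was 1.83 (log2) higher in MDS-L than in SKM-1 with DAC and 2.01 higher with DMSO, which is 3.56-fold and 4.02-fold. TNFAIP3 was 3.05 higher in MDS-L than in SKM-1 with DAC and 1.79 higher with DMSO, or 8.29-fold and 3.46-fold, so that the lines lay farther apart with DAC. NFKB1 was 1.07 higher in MDS-L with DAC and 0.60 higher with DMSO. So 3 of 9 genes with DAC and 2 of 9 with DMSO exceeded their SKM-1 level by 2-fold or more, and 0 fell short of it by as much. Of all genes measured in both lines, 14.0% did so upward and 14.6% downward with DAC, and 11.7% upward and 10.3% downward with DMSO. NFKBIE and NFKBIZ were lower in MDS-L, with MDS-L minus SKM-1 at -0.70 with DAC and -0.25 with DMSO for NFKBIE, and at -0.36 with DAC and -0.90 with DMSO for NFKBIZ. RELA was 0.34 higher in MDS-L with DAC and 0.41 with DMSO. Its sign turned to -0.13 and -0.10 when probe sets with _x_ or _s_ in their names were left out. The values then came from another of its probe sets, at 6.10 in MDS-L with DAC and 6.23 in SKM-1 with DAC.

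Of the other IkB proteins, NFKBIB, NFKBID and BCL3 were all above 0 in both lines, and 0 of 3 reached 2-fold. Their median was 0.30 for MDS-L cells and 0.63 for SKM-1 cells, and with the median over probe sets that of SKM-1 was 0.28. BCL3, a nuclear IkB protein that binds p50 and p52 homodimers, had 9.22 with DAC against 8.37 with DMSO in MDS-L, and 6.87 with DAC against 6.11 with DMSO in SKM-1. Its differences were 0.85 and 0.76, larger than those of any of the 9 genes in MDS-L and level with RELB in SKM-1. NFKBIB (IkB beta) had 0.30 and 0.63, and NFKBID, another nuclear form, 0.04 and 0.37.

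The IKK complex and the proteins upstream of it had a median of 0.10 in MDS-L, against 0.05 in SKM-1. In MDS-L 0 of 22 measured genes were at least 2-fold different, where 3.62% of all measured genes were higher and 3.18% lower. In SKM-1, where 2.71% of all measured genes were higher and 1.43% lower, 2 of 21 were at least 2-fold higher and 0 lower. Those were TRADD, the adaptor of TNF receptor 1, with 9.59 with DAC against 8.37 with DMSO, and RBCK1 with 8.66 with DAC against 7.57 with DMSO. RBCK1 and RNF31 belong to the complex that builds linear ubiquitin chains, and RNF31 was higher by 0.85 in SKM-1 and 0.35 in MDS-L. MYD88, the adaptor of most Toll-like receptors, was higher by 0.80 in SKM-1 and 0.38 in MDS-L. IRAK1, a kinase downstream of MYD88, gave -0.41 in MDS-L cells and 0.42 in SKM-1 cells. TAB2, which links ubiquitin chains to the kinase TAK1, gave 0.43 in MDS-L and -0.13 in SKM-1. The core kinase genes, named here after their values were seen, gave differences in MDS-L of -0.35 for CHUK, 0.27 for IKBKB and 0.37 for the scaffold IKBKG. In SKM-1 they gave -0.56, -0.41 and 0.22.

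Other brakes of the pathway were spread around 0, the median being 0.07 in MDS-L, against 0.01 in SKM-1, and 0 of 11 measured genes reached 2-fold in either line. RNF11, TAX1BP1 and ITCH work with A20. For RNF11 the differences were 0.77 in MDS-L cells and 0.24 in SKM-1 cells, for TAX1BP1 0.19 and -0.63, and for ITCH -0.28 and -0.83. ZC3H12A, an RNase that degrades cytokine mRNA, had 0.60 and 0.15, and IRAK3, an inhibitor of Toll-like receptor signaling, -0.46 and -0.78. COMMD1 and PDLIM2, both known to promote the breakdown of p65, had -0.53 and 0.07 in MDS-L, and 0.01 and 0.82 in SKM-1.

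Inflammatory target genes of NF-kB had larger differences, above all in MDS-L, where 13 of 26 measured genes were higher by 2-fold or more and 1 was that much lower, with a median of 1.01. All measured genes had 3.62% and 3.18% in these classes. This list, like the others, was chosen with earlier results of these data known, so its share is a description and not a test. In SKM-1, 4 of 22 were at least 2-fold higher and 2 lower, where 2.71% and 1.43% of all measured genes were, and the median was 0.19. Above 0 were 23 of 26 for MDS-L cells and 17 of 22 for SKM-1 cells. IL6 had 8.54 with DAC against 6.01 with DMSO in MDS-L, a difference of 2.53, and was under background on both SKM-1 arrays. CCL20 had 11.26 with DAC against 9.24 with DMSO in MDS-L, and 9.43 with DAC against 10.39 with DMSO in SKM-1. CCL3 had 10.59 with DAC against 8.60 with DMSO in MDS-L, and 8.60 with DAC against 10.88 with DMSO in SKM-1. PTGS2, the inducible cyclooxygenase, gave 1.17 in MDS-L and -1.29 in SKM-1, so these 3 targets had the signs of TNFAIP3 in each line. They are among only 5 of 22 below 0 in SKM-1, so most of the list had the other sign there. CCL5 and CD83, named here after their values were seen, are also among those 5. CCL5 gave 1.11 in MDS-L and -0.46 in SKM-1. CD83, the gene at least 2-fold lower in MDS-L, gave -1.01 and -0.96. LTB, a TNF family ligand, went otherwise, the differences being -0.05 in MDS-L cells and 2.19 in SKM-1 cells. CXCL10 and CCL2 passed 2-fold upward in both lines, CXCL10 at least 8.07-fold in MDS-L and at least 4.62-fold in SKM-1, since it was under background with DMSO, and CCL2 by 1.59 and 2.05 (log2). Neither passed the common test, with a limma adjusted p of 0.357 for CXCL10 and 0.379 for CCL2, the first being the lowest of all genes. IL1RN, the IL-1 receptor antagonist, was higher by 2.18 in MDS-L, and by at least 0.83 in SKM-1, where it was under background with DMSO.

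The survival targets had a median of 0.18 in MDS-L, against 0.08 in SKM-1. Higher by 2-fold or more were IER3 and TRAF1, 2 of 7 in MDS-L, and BCL2A1, 1 of 6 in SKM-1, and 0 were that much lower. IER3, an early response gene, had 9.34 with DAC against 7.23 with DMSO in MDS-L, and 7.26 with DAC against 7.12 with DMSO in SKM-1. BCL2A1, an antiapoptotic BCL2 relative, had 9.19 with DAC against 6.96 with DMSO in SKM-1, and 12.18 with DAC against 11.32 with DMSO in MDS-L. TRAF1, a receptor adaptor, gave 1.13 in MDS-L, while both SKM-1 arrays had it under background. BCL2L1, another antiapoptotic relative, gave 0.08 in MDS-L cells and 0.55 in SKM-1 cells, and the death receptor FAS gave -0.28 and -0.45.

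**Figure D5:**
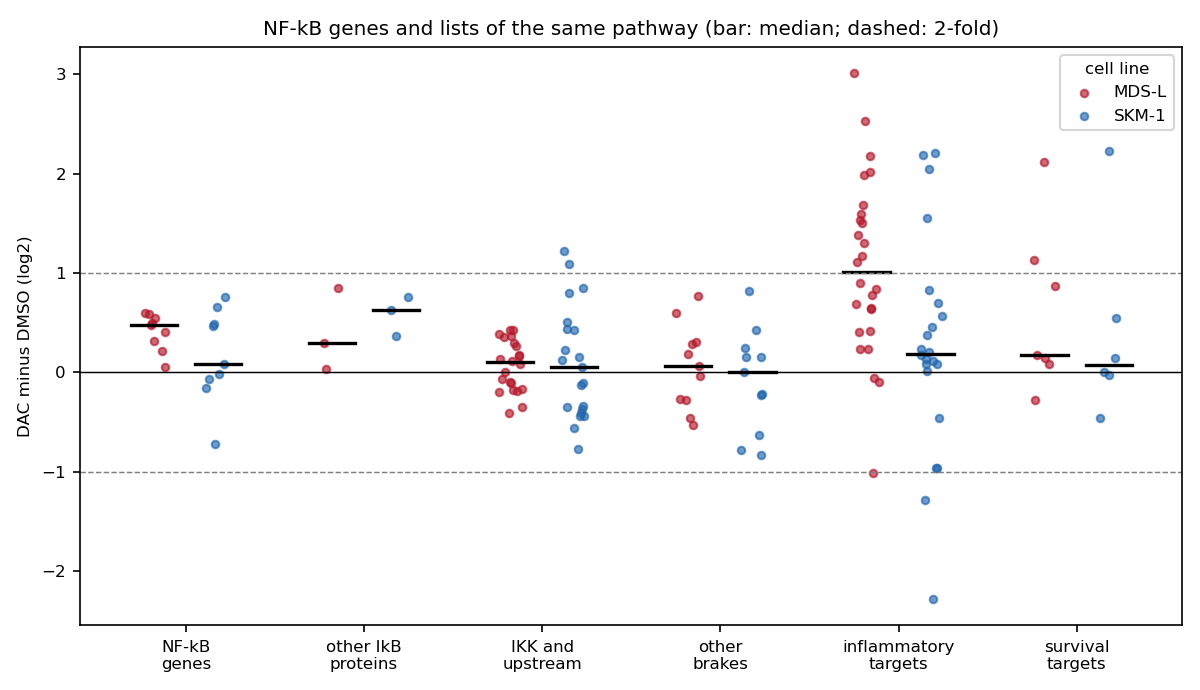
DAC minus DMSO (log2) for the 9 NF-kB genes and 5 lists of the same pathway, MDS-L in red and SKM-1 in blue, with 1 point per measured gene, a bar at the median and dashed lines at 2-fold. The inflammatory targets in MDS-L reach 3.01 around a median of 1.01, whereas the NF-kB genes stay between 0.06 and 0.59 in that line. The genes and lists were chosen with earlier results of these data known.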

How the data were processed

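Expression was measured on 4 PrimeView arrays, 1 for each line and treatment. The values deposited by the authors are log2 levels of 49395 probe sets. The methods name RMA in Partek Genomics Suite, and the submitters' processing notes name MAS5, which leaves the summary method unsettled. Once sorted, the arrays lay within 0.18 of each other, and the values were used as deposited.

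Of the probe sets, 44994 carry 1 gene symbol. Each of 18132 genes took its probe set with the highest mean. Background was the 90th percentile of 359 olfactory receptor probe sets per array, lower values were raised to it, and a gene above it on either array of a line counted as measured. An increase from a raised value is a lower bound. Background was higher with DAC than with DMSO in both lines. A gene under it only with DAC, and near it with DMSO, can therefore count as above 0. Fold changes on the log2 scale were counted at 2-fold without a test. A common effect was fitted across all genes measured in both lines with limma 3.58.1 in R 4.3.3 (cell line block, trend, two-sided, Benjamini-Hochberg). Python 3.11.15, numpy 2.4.6, pandas 2.3.3 and matplotlib 3.10.9 did the rest. The fold counts and the limma fit were run on simulated data first. The number of arrays and the signal over background limit the precision. Alternatives changed the fold threshold, the background, the scaling, the probe set rule and the limma settings.

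The members and the gene lists were chosen with earlier results of these data known. Named are all members, the 4 genes of each of 5 pathway lists with the largest differences in each line, and genes 2-fold different in both lines. Of 126 listed genes, 13 have no probe set matched by symbol and were not analysed here. Promoters came from RefSeq, GRCh38.p14.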

Additional observations from a re-analysis of the deposited data

Results flagged for a closer look

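DAC minus DMSO had opposite signs in MDS-L and SKM-1 for 4 of the 9 NF-kB genes and for 8 of the 27 pathway genes named by rule and measured in both lines, where 35.5% of all 11984 genes measured in both had opposite signs. Both shares are near that of all genes, and with 1 array per condition none of these differences between the lines was tested. The difference in MDS-L less that in SKM-1 was 1.26 for TNFAIP3, 0.61 for REL, 0.54 for NFKBIZ and 0.47 for NFKB1. Among inflammatory targets it was 4.27 for CCL3, 2.98 for CCL20, 2.46 for PTGS2 and -2.24 for LTB. Among signaling genes and brakes it was 0.56 for TAB2, -0.84 for IRAK1, 0.82 for TAX1BP1 and -0.54 for COMMD1. In 7 of these 12 genes, NFKB1, REL, NFKBIZ, TAB2, TAX1BP1, COMMD1 and LTB, the difference in one of the lines was smaller than the SD between probe sets of a gene, 0.28 in MDS-L or 0.29 in SKM-1. In the other 5, TNFAIP3, IRAK1, CCL3, CCL20 and PTGS2, both differences were larger than it. The SD between probe sets leaves out any difference between cultures. IKBKB, named after its values were seen, also had opposite signs, with 0.67, and its 0.27 in MDS-L was under that SD. CCL5, named likewise, had opposite signs with 1.57.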

How the results depend on the processing

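No gene of the family reached 2-fold under any of the alternatives in background, scaling or probe sets, nor at a 3-fold threshold. At 1.5-fold, 2 genes were higher in MDS-L, 2 were higher in SKM-1 and 1 was lower in SKM-1. Over 7 alternatives all 9 genes stayed above 0 in MDS-L, and TNFAIP3 in SKM-1 ran from -0.77 to -0.65. With the median over probe sets RELA in SKM-1 was -0.10. Quantile normalization, which put the median of all genes at 0.09 in both lines, gave 0.04 for REL and 0.0015 for NFKBIZ in SKM-1, and a common limma difference of 0.0118 for TNFAIP3, against -0.09. The cause was not tested.

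Of all genes, 459 were at least 2-fold higher in MDS-L, against 1150 at 1.5-fold, 162 at 3-fold, 247 with background at the 99th percentile and 301 when probe sets of a gene were summarized by their median. Lower were 404, against 1353 at 1.5-fold and 89 at 3-fold. In SKM-1, 345 were higher, against 1227 at 1.5-fold and 68 at 3-fold, and 182 were lower, against 1163, 17 and, at the 99th percentile, 121. The 13 inflammatory targets higher in MDS-L became 7 at 3-fold, and the 4 higher in SKM-1 became 2 at the 99th percentile. TRADD and RBCK1 in SKM-1 were past 2-fold as 2 genes of their list, which became 0 with the median over probe sets.

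By limma, 0 genes passed 0.05 under any setting, and 0 passed 0.15 with the other choices kept, while 1429 had an unadjusted p under 0.05. The lowest adjusted p by limma ran from 0.144, with the median over probe sets, to 1 without the cell line as a replicate block, where 257 genes had an unadjusted p under 0.05. No paired analysis was possible because the labels give no replicate numbers, beyond pairing by cell line. Leaving out a replicate was not possible with 1 array per condition. The number of arrays and the signal over background limit every value.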
